A study of Mus musculus with 7 samples.

Results

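The circadian clock genes described here are 10 genes of the mouse transcription-translation loop. They are the activators Arntl and Clock, the repressors Per2, Per3, Cry1, Cry2, Nr1d1 and Nr1d2, and the output factors Dbp and Nfil3. They were taken from the deposited count table by gene name alone, and 10 of 10 were present among its 17209 genes. The libraries were made from muscularis macrophages, the resident macrophages of the gut muscle layer, sorted as CX3CR1-GFP positive cells from the muscle layer peeled off the small intestine of C57BL6/J mice. The groups were 3 libraries after pMCAO surgery (pMCAO 1 to 3), named as stroke in the series title, and 4 libraries after sham surgery (Sham 1 to 4), both at 24 h. Both groups thus had surgery and were sorted on the same reporter, whose allele the labels do not name further. The labels give no age, no sex and no hour of the day for surgery or tissue collection. The description of pMCAO 3 names a pool and the labels do not say how many animals stood behind the other libraries, so the p-values here rest on the spread between libraries, which may be technical in part.

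Total counts were 12685941 to 21680302 in pMCAO libraries and 18873893 to 34432716 in sham libraries, and a clock gene had between 43 and 6258 reads in a library. Defining macrophage genes were detected in every library. The 9 of 9 macrophage markers summed to 7677 to 8405 CPM in pMCAO libraries and 8817 to 11568 CPM in sham libraries, without overlap, with 8 of 9 means lower after pMCAO and 0 passing the edgeR test at an adjusted p under 0.05. C1qa, a complement gene of macrophages with the smallest p of the 9, lay at 279 ± 76.9 CPM in pMCAO libraries and 546 ± 104 CPM in sham libraries. Mertk, the only marker of the 9 with a higher mean, lay at 516 ± 66.5 CPM in pMCAO libraries and 354 ± 97.2 CPM in sham libraries. Cx3cr1, the fractalkine receptor gene behind the reporter, lay at 137 to 222 CPM, a gene's counts scaled to a common library size, in pMCAO libraries and 207 to 299 CPM in sham libraries. Csf1r, the growth factor receptor of macrophages, lay at 1614 to 1917 CPM in pMCAO libraries and 1478 to 2783 CPM in sham libraries. Genes of fibroblasts were also detected. Of 8 fibroblast markers, 8 were measured, with none at 0 and 8 higher means after pMCAO, and 0 passed the edgeR test at an adjusted p under 0.05. Their summed level was 106 to 533 CPM in pMCAO libraries and 55.3 to 163 CPM in sham libraries, and these ranges overlapped. Mitochondrial ribosomal RNA took 8.26% to 12.6% of the counts in pMCAO libraries and 2.42% to 5.82% in sham libraries.

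The clock works as a delayed negative feedback loop. CLOCK and BMAL1, the protein encoded by Arntl, bind E-boxes as a pair and switch on the Per and Cry genes, Nr1d1, Nr1d2 and Dbp. PER and CRY proteins return to the nucleus and block that pair, while the nuclear receptors REV-ERB alpha (Nr1d1) and REV-ERB beta (Nr1d2) repress Arntl, Clock, Cry1 and Nfil3 through response elements called RREs, which the activating ROR receptors share. DBP activates and NFIL3 represses genes with D-boxes, among them Per3. Macrophages hold a cell-autonomous clock, which in mice sets a daily rhythm in cytokine release, and glucocorticoids can shift the phase of peripheral clocks.

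Letters matching these binding motifs were found in the promoters of several members, and the stretches below show such matches. RefSeq promoter windows (GRCm38.p6, from 250 bases before to 50 bases after a start) were matched by symbol for 9 of the 10 genes, in 12 windows. Both strands were searched for the E-box CACGTG, the variant CACGTT, the D-box TTANGTAA, the RRE core TNGGTCA, the glucocorticoid response element and the cAMP response element TGACGTCA. Capitals mark the matched letters on the gene's own strand, so that a match on the other strand appears as its reverse complement, and each stretch reads 5′ to 3′.
Cry1 (E-box and E-box variant, chr10:85185079-85185163, minus strand): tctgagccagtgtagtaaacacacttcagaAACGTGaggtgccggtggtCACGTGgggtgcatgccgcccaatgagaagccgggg
Nr1d1 (E-box variant, chr11:98775378-98775435, minus strand): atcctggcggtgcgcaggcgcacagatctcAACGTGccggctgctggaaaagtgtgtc
Per3 (2 D-boxes and an RRE core, chr4:151044747-151044900, minus strand): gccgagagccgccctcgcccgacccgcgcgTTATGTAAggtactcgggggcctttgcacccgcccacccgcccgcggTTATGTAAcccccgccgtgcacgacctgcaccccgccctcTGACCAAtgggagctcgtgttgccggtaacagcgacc
Cry2 (E-box variant and RRE core, chr2:92434166-92434265, minus strand): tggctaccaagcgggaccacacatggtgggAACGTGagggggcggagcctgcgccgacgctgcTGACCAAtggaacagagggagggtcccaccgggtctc
Arntl (RRE core, chr7:113207530-113207559, plus strand): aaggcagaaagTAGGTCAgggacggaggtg
Nfil3 (RRE core, chr13:52981040-52981081, minus strand): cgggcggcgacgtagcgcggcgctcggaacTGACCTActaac

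The Arntl match begins 31 bases after the second RefSeq start and the Nfil3 match 12 bases before its start. Both read TAGGTCA. The RRE core matches of Per3 and Cry2 read TTGGTCA and overlap a CCAAT box, as does 1 of the 2 further Arntl matches upstream. Among all 32851 windows of the same length, the E-box was found in 7.15%, the variant in 4.68%, the D-box in 2.32%, the RRE core in 11% and the cAMP element in 1.79%. The glucocorticoid element was found in 0.00913% of windows. No window of Clock, Dbp or Nr1d2 held any of the 6 motifs, which says only that these letters are not in those windows, and no motif is shown here to be bound.

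Per kilobase of exon, the highest of the 10 genes in both groups were Nr1d2 and Clock, and the lowest was Cry2. Nr1d2 lay at 21.5 ± 4.59 CPM per kilobase in pMCAO libraries (SD, n = 3) and 13.7 ± 2.15 in sham libraries (SD, n = 4). Clock lay at 15.4 ± 3.57 in pMCAO libraries and 12.4 ± 0.954 in sham libraries on the same scale, so that the ranges of these 2 genes overlapped in both groups. A middle tier of Arntl, Nr1d1, Per2 and Nfil3 followed in sham libraries, at means of 5.79, 5.14, 3.96 and 3.79 CPM per kilobase, and these neighbours overlapped as well. Dbp (2.49), Per3 (1.88) and Cry1 (1.84) came next in sham libraries, and Cry2 had the lowest mean, 0.857 CPM per kilobase. After pMCAO the order was the same except in the middle tier, which ran Nfil3 (6.10), Nr1d1 (6.08), Arntl (5.68) and Per2 (4.15). Nfil3, Nr1d1 and Arntl differed there by less than the spread between libraries. Exon lengths were those of all annotated exons of a gene, so a gene with long alternative exons, such as Clock, is set low by this measure.

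After pMCAO 0 of the 10 clock genes changed by the edgeR quasi-likelihood test, where 0.0988% of all 17209 genes did. DESeq2, which called 2.97% of the genes it tested, and limma-voom, which called 0.203%, also called 0 of the 10. At an unadjusted p under 0.05 the edgeR test passed 1 of the 10, Nr1d2, against 13.4% of all genes in either direction and 6.97% that were higher. The mean was higher after pMCAO in 9 of the 10 genes, with a median log2 change of 0.17 against -0.02 over all genes. The median absolute log2 change was 0.17 for the clock genes and 0.36 for all genes. Without scaling factors the median of all genes shifted to -0.14 and only 5 of the 10 log2 changes were above 0, but under either scaling Arntl alone lay below the median of all genes.

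**Figure D1:**
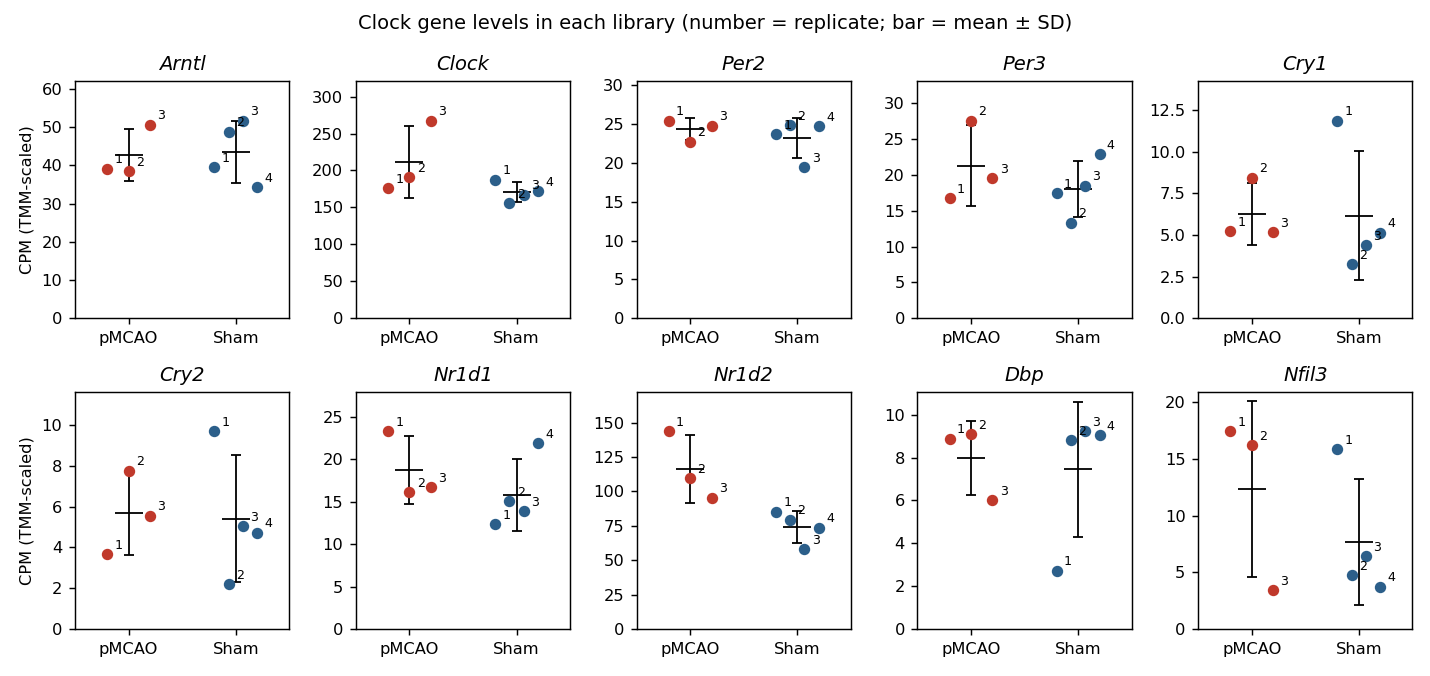
Level of each clock gene in CPM after TMM scaling (y axis, starting at 0) in each pMCAO library (red, left) and sham library (blue, right), with the replicate number beside each point and the mean ± SD as a bar. For Nr1d2 the 3 pMCAO points lie above the 4 sham points, while the groups overlap for the other 9 genes.

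In the activator arm, neither gene passed the edgeR test at an adjusted p under 0.05. Arntl, which encodes BMAL1, the partner without which the loop stops, is on chromosome 7 from 113207465 to 113314126 (ENSMUSG00000055116, GRCm38). Its level was 39.1, 38.5 and 50.6 CPM in pMCAO 1 to 3, against 39.5, 48.8, 51.7 and 34.3 CPM in Sham 1 to 4. The pMCAO values all lay inside the range of the sham values. The log2 change was -0.03 (SE 0.22, adjusted p = 0.974 by edgeR), with a 95% interval of the fold change from 0.710 to 1.36. Clock, which encodes the DNA-binding partner of BMAL1, is on chromosome 5 from 76209868 to 76304792 (ENSMUSG00000029238). It stood at 176, 191 and 268 CPM in pMCAO 1 to 3, against 187, 156, 167 and 172 CPM in Sham 1 to 4. The groups overlapped, and pMCAO 3 was the highest library. The log2 change of Clock was 0.31 (SE 0.18, adjusted p = 0.470 by edgeR), and it was 0.11 without pMCAO 3.

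The PER and CRY arm had 4 higher means, none of which passed the edgeR test at an adjusted or an unadjusted p under 0.05. Per2, a period gene whose loss disrupts daily rhythms in mice, is on chromosome 1 from 91415982 to 91459324 (ENSMUSG00000055866). Its level was 25.5, 22.7 and 24.8 CPM in pMCAO 1 to 3, against 23.7, 24.9, 19.4 and 24.8 CPM in Sham 1 to 4. It varied least of the 10 genes within pMCAO libraries, by 1.12-fold from the lowest to the highest, and its groups overlapped. Its log2 change was 0.07 (SE 0.23, adjusted p = 0.927 by edgeR), with a fold change interval from 0.746 to 1.47. Per3, a period gene that the loop can do without in mice, is on chromosome 4 from 151003652 to 151044665 (ENSMUSG00000028957). It stood at 16.7, 27.6 and 19.6 CPM in pMCAO 1 to 3, against 17.5, 13.3, 18.5 and 22.9 CPM in Sham 1 to 4. The highest library was pMCAO 2 and the lowest Sham 2, with overlap in between (log2 change 0.24, SE 0.28, adjusted p = 0.752 by edgeR).

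The cryptochromes, direct repressors of the CLOCK and BMAL1 pair, were the members with the lowest means in CPM and spread widely within the sham group. Cry1 (ENSMUSG00000020038, chromosome 10, 85131700 to 85185064) lay at 5.21, 8.43 and 5.16 CPM in pMCAO 1 to 3, against 11.9, 3.23, 4.39 and 5.14 CPM in Sham 1 to 4. Cry2 (ENSMUSG00000068742, chromosome 2, 92403646 to 92434043) lay at 3.67, 7.77 and 5.55 CPM in pMCAO 1 to 3, against 9.70, 2.19, 5.04 and 4.73 CPM in Sham 1 to 4. For both genes Sham 1 was the highest library, pMCAO 2 came next and Sham 2 was the lowest. The spread within the sham group was 3.67-fold for Cry1 and 4.42-fold for Cry2. The log2 changes were 0.03 (SE 0.49, adjusted p = 0.987) for Cry1 and 0.07 (SE 0.51, adjusted p = 0.970) for Cry2 by edgeR. Both rested on single libraries: without Sham 1 they were 0.56 for Cry1 and 0.51 for Cry2, and without pMCAO 2 they were -0.24 for Cry1 and -0.22 for Cry2. The fold change intervals, 0.493 to 2.12 for Cry1 and 0.489 to 2.26 for Cry2, are wide enough to hold a doubling or a halving. Of the exon bases of Cry2, 4.67% are shared with a transcript on the opposite strand, whose reads could be counted with it since the strand setting is not given.

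In the REV-ERB arm, Nr1d2 stood apart between the groups and Nr1d1 did not. Nr1d2 (ENSMUSG00000021775) is on chromosome 14 from 18204054 to 18239127. Its level was 144, 110 and 95.4 CPM in pMCAO 1 to 3, against 85.1, 79.5, 58.1 and 73.5 CPM in Sham 1 to 4. Every pMCAO library lay above every sham library, the lowest pMCAO library at 95.4 CPM and the highest sham library at 85.1 CPM. Groups that do not overlap, in either direction, were found for 12.6% of all genes, and 5.99% had pMCAO above, so that 1 of 10 is near the background. The log2 change of Nr1d2 was 0.65 (SE 0.20), a fold change of 1.57 with an unadjusted 95% interval from 1.17 to 2.11, and it did not pass over all genes (adjusted p = 0.192 by edgeR). The adjusted p was 0.0705 with DESeq2, 0.191 with limma-voom and 0.0156 with limma-voom and sample quality weights, which called 4.75% of all genes. Without pMCAO 1 the log2 change was 0.47 (adjusted p = 0.429 by edgeR). With a stromal score (fibroblast and endothelial markers) added as a covariate it was 0.35 (adjusted p = 0.901 by edgeR). That score was 5.06, 3.88 and 4.85 in pMCAO 1 to 3, against 3.07, 3.99, 2.71 and 3.04 in Sham 1 to 4. It largely followed the groups, so this fit cannot tell score and group apart. Other values differed in the same libraries: pMCAO 1, with the highest Nr1d2, also had the highest share of mitochondrial ribosomal RNA, 12.6%. The 6 of 6 blood endothelial markers had higher means after pMCAO, at summed levels of 244 to 319 CPM, against 83.8 to 221 CPM in sham libraries. Summed macrophage markers, given above, were lower in every pMCAO library than in any sham library. Of 4 markers of large peritoneal macrophages, 3 were measured, with 3 higher means, and the defining gene Gata6 was not listed. The measured ones summed to 20.1 to 64.8 CPM in pMCAO libraries and 7.81 to 13.4 CPM in sham libraries, without overlap. Most of this sum was Prg4, at 17.2 to 48.0 CPM in pMCAO libraries and 5.75 to 11.5 CPM in sham libraries. Alox15 and Selp each overlapped between the groups. The part of the RNA share, of the endothelial markers and of both macrophage lists in the Nr1d2 values was not tested. In bulk RNA, fewer cells of a type and less RNA per cell cannot be told apart.

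Nr1d1 (ENSMUSG00000020889), a gene with a strong daily swing in most tissues, is on chromosome 11 from 98767932 to 98775333. It stood at 23.3, 16.1 and 16.7 CPM in pMCAO 1 to 3, against 12.4, 15.0, 13.9 and 21.9 CPM in Sham 1 to 4. The groups overlapped through Sham 4, which lay above pMCAO 2 and pMCAO 3. The log2 change was 0.24 (SE 0.29, adjusted p = 0.761 by edgeR), 0.44 without Sham 4 and 0.05 without pMCAO 1. The log2 ratio of Nr1d2 to Nr1d1 was 2.62, 2.76 and 2.51 in pMCAO 1 to 3 and 2.77, 2.39, 2.05 and 1.74 in Sham 1 to 4. Sham 1 lay above all 3 pMCAO libraries in that ratio, so a difference between the paralogs was not separated from the spread. Nr1d1 shares 8.55% of its exon bases with Thra, the thyroid hormone receptor gene on the opposite strand. Thra lay at 17.3 ± 2.19 CPM in pMCAO libraries (SD, n = 3) and 17.3 ± 2.90 CPM in sham libraries (SD, n = 4), and its log2 change was 0.00.

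**Figure D2:**
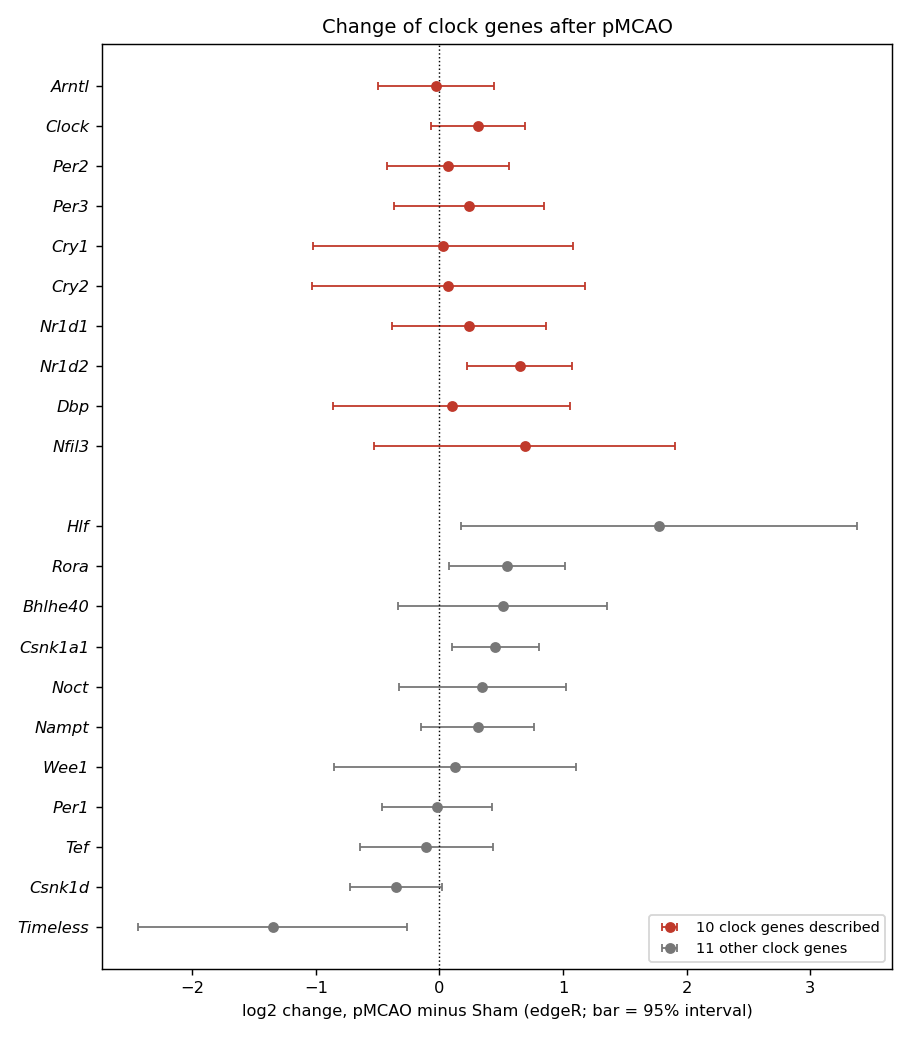
Log2 change of pMCAO minus sham (x axis, edgeR) with its unadjusted 95% interval for the 10 clock genes (red, top) and 11 genes of the wider clock list, those named in the Results (grey, ordered by change). Of the red intervals, only that of Nr1d2, from 0.23 to 1.07, leaves out 0.

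Neither output gene, Dbp or Nfil3, passed the edgeR test at an adjusted p under 0.05. Single libraries stood far from the rest of their group in both. Dbp, the D-box activator that follows E-box activity closely in most tissues, is on chromosome 7 from 45705088 to 45710203 (ENSMUSG00000059824). It stood at 8.89, 9.09 and 6.0 CPM in pMCAO 1 to 3, against 2.72, 8.82, 9.23 and 9.04 CPM in Sham 1 to 4. Of the 7 libraries 5 lay between 8.82 and 9.23 CPM, with pMCAO 3 lower and Sham 1 lowest, where 53 reads were counted. The log2 change was 0.10 (SE 0.45, adjusted p = 0.948 by edgeR) and -0.18 without Sham 1. The fold change interval ran from 0.551 to 2.08. Dbp shares 18% of its exon bases with Sphk2 on the opposite strand. Sphk2 lay at 15.1, 23.1 and 8.47 CPM in pMCAO 1 to 3, against 18.2, 21.8, 23.2 and 22.3 CPM in Sham 1 to 4. In each group the library with the lowest Sphk2, pMCAO 3 and Sham 1, was also that with the lowest Dbp. The part of Sphk2 reads in the Dbp values was not tested.

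Nfil3, the D-box repressor, also needed for natural killer cells in mice, is on chromosome 13 from 52967209 to 52981073 (ENSMUSG00000056749). It lay at 17.4, 16.2 and 3.42 CPM in pMCAO 1 to 3, against 15.9, 4.73, 6.41 and 3.71 CPM in Sham 1 to 4. The 7 libraries fell into a high set of pMCAO 1, pMCAO 2 and Sham 1 and a low set of the other 4, which crosses the groups. The log2 change was 0.69 (SE 0.57, adjusted p = 0.628 by edgeR), 1.32 without Sham 1 and 0.36 without pMCAO 1. The fold change interval ran from 0.692 to 3.75, the widest of the 10. Of 3 neutrophil markers 2, S100a8 and S100a9, were listed in the table, and Ly6g was not. Their summed level was 24.0, 28.2 and 0.953 CPM in pMCAO 1 to 3, against 57.5, 0.344, 1.36 and 3.02 CPM in Sham 1 to 4. The 3 libraries with high Nfil3 were also those with high neutrophil markers, and the part of these markers in the Nfil3 values was not tested.

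**Figure D3:**
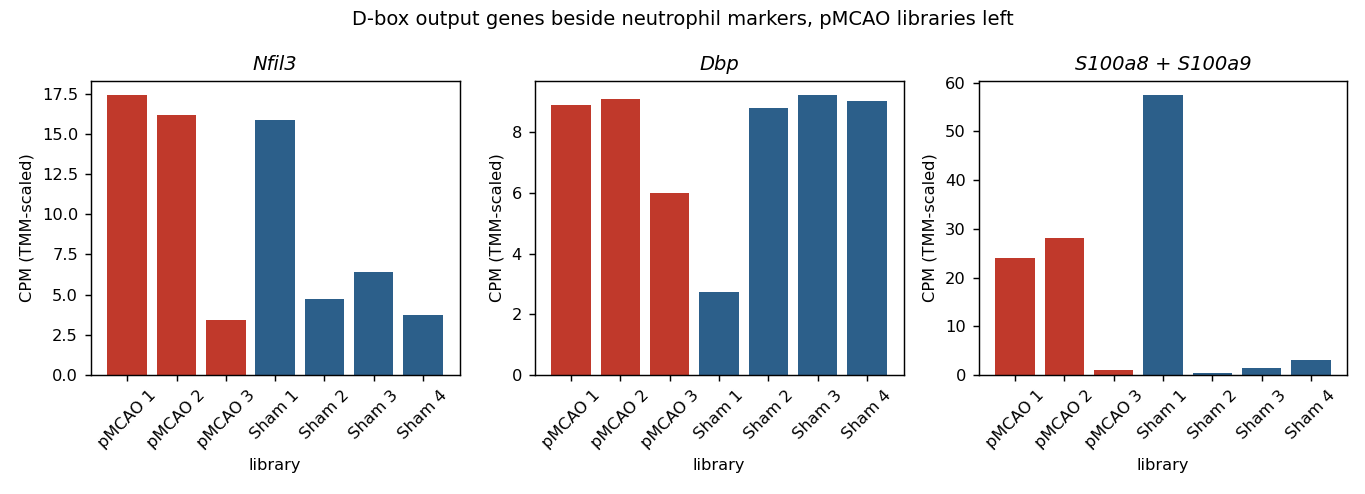
Level in CPM after TMM scaling (y axes, starting at 0) of Nfil3, of Dbp and of the summed neutrophil markers S100a8 and S100a9 in each library, pMCAO in red and sham in blue. Nfil3 and the markers are high in pMCAO 1, pMCAO 2 and Sham 1, and Dbp is lowest in Sham 1 at 2.72 CPM.

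The balance of the activator and repressor arms overlapped between the groups. The mean log2 CPM of Arntl and Clock minus that of the 6 repressors was 2.25, 2.06 and 2.78 in pMCAO 1 to 3, against 2.16, 2.86, 2.76 and 2.18 in Sham 1 to 4. Both groups held low and high libraries, at a mean of 2.36 ± 0.375 in pMCAO libraries (SD, n = 3) and 2.49 ± 0.369 in sham libraries (SD, n = 4). The difference of -0.12 was smaller than either SD, and it was 0.03 without pMCAO 2 and -0.33 without pMCAO 3. Against the PER and CRY genes alone the difference was -0.03, and against the REV-ERB genes alone -0.31. As the members were chosen with results of these data known, these scores carry no p.

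**Figure D4:**
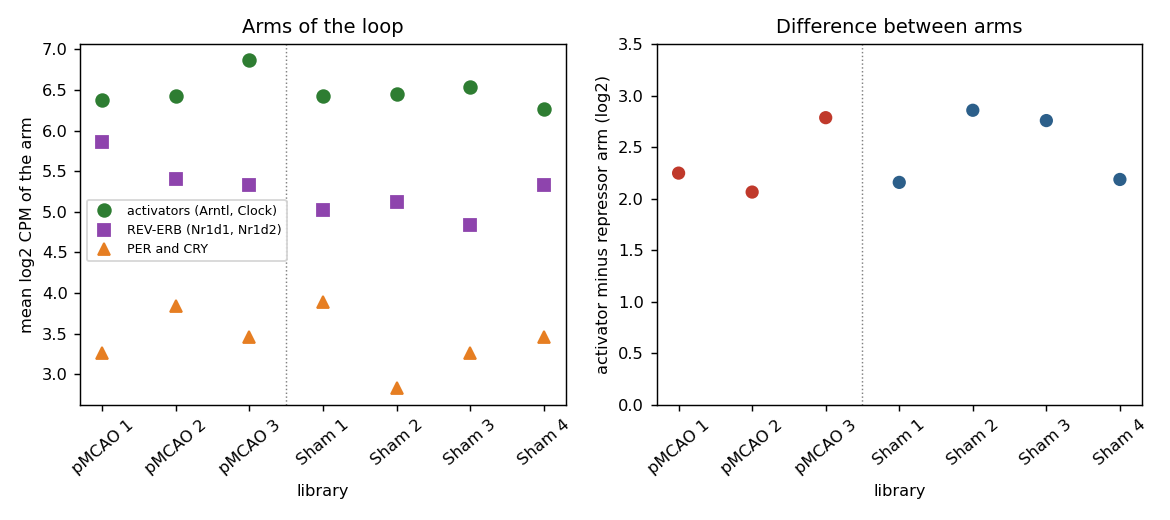
Left, mean log2 CPM of the activators Arntl and Clock, of the REV-ERB genes Nr1d1 and Nr1d2, and of Per2, Per3, Cry1 and Cry2 in each library. Right, the activator arm minus all 6 repressors (y axis starting at 0), which spans 2.06 to 2.78 in pMCAO libraries (red) and 2.16 to 2.86 in sham libraries (blue).

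The arms did not move as blocks from library to library either. The REV-ERB mean was 5.86, 5.40 and 5.32 log2 CPM in pMCAO 1 to 3, against 5.03, 5.12, 4.84 and 5.33 log2 CPM in Sham 1 to 4, overlapping between pMCAO 3 and Sham 4. The PER and CRY mean was highest in Sham 1 (3.89) and pMCAO 2 (3.84) and lowest in Sham 2 (2.83). Sham 1 stood out among the sham libraries, with the highest Clock, Cry1, Cry2, Nr1d2 and Nfil3 and the lowest Dbp and Nr1d1 of that group. Its log2 ratio of Dbp to Nfil3 was -2.50, beside 0.89, 0.52 and 1.26 in Sham 2 to 4. The same ratio was -0.96, -0.83 and 0.79 in pMCAO 1 to 3. The sum of the epithelial markers (3 of 3 measured) was also highest in Sham 1, at 15.8 CPM, and pMCAO 2, at 13.6 CPM. It was 4.44 to 8.22 CPM in the other libraries. Single markers did not all share this order: Epcam was highest in Sham 1 (8.37 CPM), Vil1 in pMCAO 2 (7.96 CPM) and Krt20 in Sham 3 (3.03 CPM). The part of these markers in the Cry1 and Cry2 values was not tested. The hour of collection was not tested either, as the labels do not give it.

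**Figure D5:**
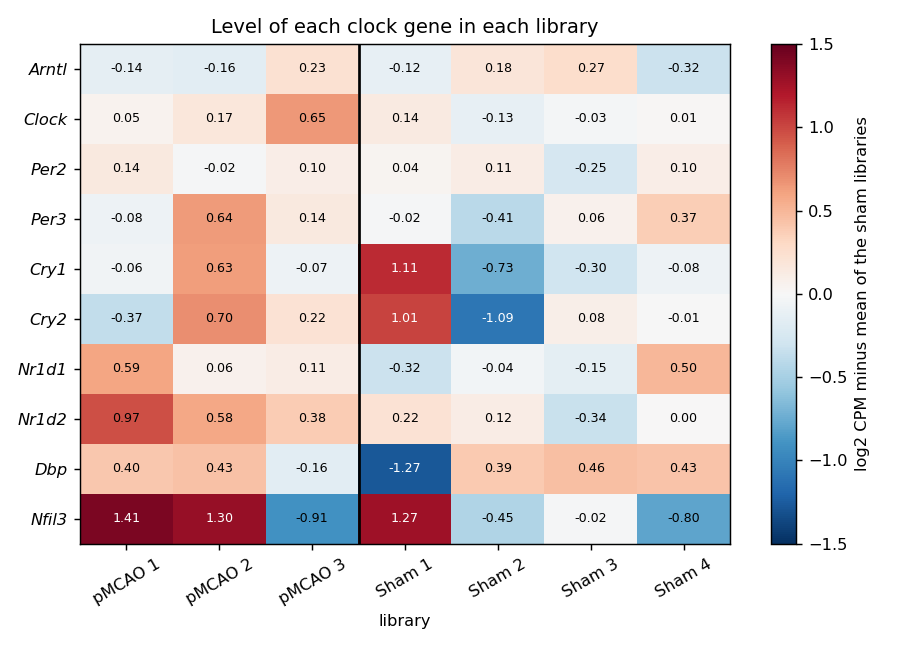
Log2 CPM of each clock gene (rows) in each library (columns, pMCAO left of the black line) minus the mean of the sham libraries, with the value in each cell and red for higher. Nr1d2 is above 0 in all 3 pMCAO libraries, Sham 1 has 1.11 for Cry1 and -1.27 for Dbp, and Nfil3 is over 1.2 in pMCAO 1, pMCAO 2 and Sham 1.

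The wider clock list held 24 further genes, of which 21 were in the table. Noct was matched by its identifier. By edgeR 0 of the 21 changed after pMCAO, beside 0.0988% of all genes. At an unadjusted p under 0.05 there were 5 of the 21, 4 higher and 1 lower, beside 13.4% of all genes in either direction and 6.97% that were higher. DESeq2 and limma-voom called 0 of the 21 as well. Groups that did not overlap, in either direction, were found for 4 of the 21 (Rora, Timeless, Csnk1a1 and Csnk1d), beside 12.6% of all genes. The median log2 change was 0.21, beside -0.02 for all genes.

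Among 7 further genes of the core loop, the smallest p belonged to Timeless, Rora and Bhlhe40. Rora encodes the ROR receptor that competes with the REV-ERB proteins for RREs. It lay at 42.2, 47.4 and 71.5 CPM in pMCAO 1 to 3, against 36.1, 34.3, 39.5 and 37.1 CPM in Sham 1 to 4. The groups did not overlap, as with Nr1d2, and the log2 change was 0.55 (SE 0.22, adjusted p = 0.297 by edgeR). Timeless, whose mammalian protein is known mainly for its role at replication forks, lay at 2.65, 1.08 and 3.59 CPM in pMCAO 1 to 3, against 6.52, 6.80, 5.35 and 6.16 CPM in Sham 1 to 4. All pMCAO libraries were below all sham libraries (log2 change -1.35, SE 0.51, adjusted p = 0.272 by edgeR). Bhlhe40, a repressor of E-box genes, had a log2 change of 0.51 (SE 0.39, adjusted p = 0.599 by edgeR). Per1, the period gene that glucocorticoids induce directly, lay at 85.2, 92.2 and 62.3 CPM in pMCAO 1 to 3, against 70.9, 91.5, 96.5 and 64.9 CPM in Sham 1 to 4. Its pMCAO values lay within or just below the sham range, and the log2 change was -0.02 (SE 0.21, adjusted p = 0.981 by edgeR).

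Of the PAR bZIP factors related to Dbp, Hlf lay at 5.81, 0.989 and 4.99 CPM in pMCAO 1 to 3, against 0.411, 1.81, 1.41 and 0.935 CPM in Sham 1 to 4. It was high in pMCAO 1 and pMCAO 3, the libraries with the highest summed fibroblast markers, 462 and 533 CPM, and the part of these was not tested. Its log2 change of 1.77 (SE 0.75) had an adjusted p of 0.324 by edgeR. Tef, the third factor of that family, had a log2 change of -0.11 (SE 0.25, adjusted p = 0.887 by edgeR).

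Of the 9 kinases and turnover factors of clock proteins, 0 passed the edgeR test at an adjusted p under 0.05. Csnk1a1, a casein kinase of the family that marks PER proteins for breakdown, lay at 398 ± 55.2 CPM in pMCAO libraries and 291 ± 28.7 CPM in sham libraries (log2 change 0.45, SE 0.17, adjusted p = 0.262 by edgeR). Csnk1d, the casein kinase 1 delta gene, whose protein also acts on PER, lay at 66.1 ± 6.43 CPM in pMCAO libraries and 84.3 ± 5.64 CPM in sham libraries (log2 change -0.35, SE 0.17, adjusted p = 0.396 by edgeR). For both kinases the groups did not overlap, in opposite directions. The output genes Nampt, which acts in NAD synthesis, Noct, which encodes nocturnin, and Wee1, which restrains entry into mitosis, had log2 changes of 0.31, 0.35 and 0.13, and none passed by edgeR.

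The genes nearest in pattern were sought among 11530 genes of at least 5 CPM outside the lists, by the root mean square difference of log2 CPM over the 7 libraries after centring each gene. Nearest to Arntl were Skp2 (0.10), Gorab (0.11) and St13 (0.11), with a median difference of 0.42 over all these genes. Nearest to Nr1d1 were Kremen1 (0.10), 2410002F23Rik (0.11) and Ing1 (0.12), against a median of 0.47. Among the other members, the nearest lay at 0.28 from Arntl (Clock) and 0.26 from Nr1d1 (Per2), both below these medians. A gene flat over the 7 libraries would lie at 0.21 from Arntl and 0.31 from Nr1d1. Clock was thus farther from Arntl than a flat gene, and Per2 only slightly nearer to Nr1d1. A distance below the median therefore did not mean a shared pattern. Nfil3 was the member farthest from Arntl and from Nr1d1, at 1.07 and 1.04.

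The authors' deposited table also listed none of the 10 clock genes at an FDR under 0.05, where it listed 0.0814% of all genes. Its log2 change for Nr1d2 was 0.54 (FDR = 0.389 in the authors' deposited table) and its log2 change for Clock was 0.49 (FDR = 0.389 there). For Cry2 the authors' deposited table gave a log2 change of 1.08 and for Cry1 0.68, and for Dbp -0.31. These differ from the changes computed here from the counts, and the model behind the authors' values is not given in the sources used here.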

How the data were processed

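RNA-seq libraries of sorted muscularis macrophages (7) were compared. Per the submitters' processing notes, the authors used STAR, featureCounts and limma with GRCm38 (mm10). Their settings, strand mode and annotation release were not given in the sources used here. Per the labels' protocols, libraries came from a few nanograms of RNA after cleavage of ribosomal RNA. No molecular identifiers are stated, so reads may include duplicates. The deposited counts per gene were used for every result unless the authors' table is named. The deposited CPM equals count over library total to within 0.0005. The log2 fold changes, p-values and FDR in the deposited table are the authors'. The table holds genes above 0.5 CPM in at least 4 libraries, so a gene present only after pMCAO would be missing.

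The test was edgeR 4.0.16 (R 4.3.3), quasi-likelihood, robust, TMM factors, group as the only term, over all 17209 genes kept by its expression filter, with two-sided p-values adjusted by Benjamini-Hochberg and called under 0.05. CPM in the text are TMM-scaled, and log2 CPM used a prior count of 2. The SE is the log2 change over the square root of F. Alternatives used DESeq2 1.42.0 and limma 3.58.1. The scripts were checked on simulated data. Positions and exon lengths came from GENCODE M21, which held 99.4% of the identifiers on the same chromosome.

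Members and lists were chosen with earlier results of these data known. All members were named, with the 3 smallest p of each group of the wider list, Per1, and the 3 genes nearest in pattern to Arntl and Nr1d1. Some genes of the wider list are not reported here. Other marker lists served as checks of the sorted cells. Libraries were not taken as pairs by replicate number, and the labels name no pairing.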

Additional observations from a re-analysis of the deposited data

Results flagged for a closer look

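Among 32 values (10 clock genes, 21 further clock genes and the difference between arms), 2 had a sham library far from the other 3, its gap to the nearest, as a share of the group's range, exceeding Dixon's critical value for 4 samples. Chance gives such a gap in about 1 of 20 groups. Dbp was at 2.72 CPM in Sham 1, with the other sham libraries at 8.82 to 9.23 CPM. Fbxl21, which encodes a ubiquitin ligase subunit acting on cryptochromes, was at 5.2 CPM in Sham 3, with the other sham libraries at 2.69 to 2.98 CPM. Groups of 3, such as pMCAO, were not examined in this way.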

How the results depend on the processing

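Over 17 alternative fits and a threshold of 0.10, the number of the 10 clock genes called stayed at 0, except for 1 (Nr1d2, log2 change 0.89) with limma-voom and sample quality weights. The wider clock list likewise had 0 calls, except for 1 (Csnk1a1) with those weights. Leaving out each library gave 0 calls in both lists throughout. The count over all genes, 17 with 12 higher and 5 lower, was 29 (14 higher, 15 lower) without scaling factors, 34 with upper-quartile factors, 75 over genes of at least 5 CPM, 470 with DESeq2, 35 with limma-voom, 818 with quality weights, 0 with a stromal score (fibroblast and endothelial markers) added as a covariate (edgeR, 1057 with an unadjusted p under 0.05), 98 at a threshold of 0.10 and 0 to 100 when 1 library was left out. It was 0 without pMCAO 1 (edgeR, 1987 with an unadjusted p under 0.05), 100 without pMCAO 2, 7 without pMCAO 3, 47 without Sham 1, 47 without Sham 2 and 9 without Sham 4. Clock, Nr1d1, Nr1d2 and Nfil3 kept a positive log2 change in all 17 fits. The other 6 changed sign in 1 to 6 of them, with no call on either side, and the largest shifts were to 1.5 for Cry2, 0.99 for Cry1 and 0.95 for Per3 with that stromal score in the model. The difference between arms ranged from -0.33 to 0.03 when 1 library was left out. With the replicate number as a block (replicate block, 6 libraries) 0 clock genes and 21 genes in all were called. Same-numbered libraries correlated at -0.08, -0.01 and 0.10 in their deviations, and 2 of 6 correlated best with their own number, so the numbers were not taken as pairs. The causes of these shifts were not tested. The stromal score largely followed the groups, so the fits with it cannot tell score and group apart. Each clock gene had 43 reads or more in each library, and the part of read depth in the error was not tested.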
